A study of Mus musculus with 15 samples.

Results

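The genotype dependence of the response to radiation added to immune checkpoint inhibition was measured as a single quantity per gene. It is the log2 change from checkpoint inhibitor alone to radiation plus checkpoint inhibitor in LKB1-knockdown tumours, minus the same change in wild-type tumours. All 12 libraries with counts entered it, out of 15 samples in the series, and 16617 of 53465 genes had enough counts to be tested. A negative difference means that a gene responded more upward in wild-type than in knockdown tumours, and a positive difference the reverse.

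The study took tumours of LLC1, a mouse Lewis lung carcinoma line, and of LLC1-sgLkb1, the same line with a guide RNA against Lkb1 and labelled LKB1 knockdown, and measured their RNA in bulk. WT ICI and KD ICI are the groups given an immune checkpoint inhibitor, and WT RI and KD RI are the groups given radiation and an immune checkpoint inhibitor, with 3 libraries each, named below by group and number. The inhibitor was thus common to all 4 groups. The checkpoint target, the dose and timing of radiation, whether a tumour was itself irradiated, the age of the mice and the number of cell clones are not given in the labels, nor do these say that the 3 samples of a group are separate animals, so p-values measure the spread between samples only.

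LKB1, encoded by Stk11, is a kinase that activates AMPK and its relatives, and its loss in lung cancer is known for tumours with few T cells and many neutrophils. Radiation can raise interferon signalling in tumours. Interferon-gamma then acts through factors such as IRF1 on a set of target genes that includes the guanylate-binding proteins, the immunity-related GTPases, the peptide loading machinery of MHC class I and the checkpoint ligand PD-L1. In bulk tumour RNA, fewer cells of a type and less RNA per cell cannot be told apart.

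Library totals ran from 17289313 to 23471917 counts, and levels are given as CPM, counts relative to the library total after TMM scaling, which corrects for differences in RNA composition. Carcinoma keratin Krt8 was high everywhere (441 to 755 CPM), while Epcam was at 0 to 0.778 CPM. The summed T cell markers (Cd3d, Cd3e, Cd3g, Cd8a, Cd4) were 11.3 to 25.0 CPM in WT and 0.277 to 1.40 CPM in KD. Muscle markers summed to 913 CPM in WT ICI 2 and to 789 CPM in WT RI 3, against at most 85.6 CPM elsewhere, and the erythroid sum was highest in KD ICI 1 (1917 CPM), KD ICI 2 (683) and WT ICI 2 (651). The description of KD ICI 3 carries CON, in contrast to ICI+RT in KD RI 1 and KD RI 3, at odds with its label of checkpoint inhibitor, and those of KD ICI 1 and KD ICI 2 share a name stem. The library labelled KD ICI 3 was kept as labelled, and the results that it decides are given with and without it.

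Stk11 itself stood at 168, 152 and 171 CPM in WT ICI against 140.2, 140.0 and 147 in WT RI, 115, 128 and 152 in KD ICI and 139, 111 and 127 in KD RI. KD libraries thus overlapped WT libraries in RNA level, which does not check a protein lost through a guide. Its treatment effect did not pass the test of a difference between genotypes (0.13 ± 0.16, adjusted p 0.763 by edgeR's quasi-likelihood test). Differences and effects are log2 values ± standard error throughout. The standard error was derived from the test, as the absolute log2 value over the square root of its F statistic. Sfrp2, the secreted Wnt antagonist named in the title of the study, had 2.2, 0.279 and 2.38 CPM in WT ICI against 1.28, 1.71 and 4.28 in WT RI, 2.65, 2.94 and 2.55 in KD ICI and 9.58, 11.5 and 3.17 in KD RI. Its difference was 0.98 ± 0.94, with an adjusted p of 0.688.

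The response to added radiation differed between genotypes in 61 genes, and in 60 of these the effect had opposite signs. Those up in WT and down in KD included Gbp2, Gbp7, Igtp and Irgm1 of the interferon-inducible GTPases, Tap1 and H2-Q7 of antigen presentation and the PD-L1 gene Cd274. Socs3 and Tnfaip3, which inhibit cytokine and NF-kB signalling, Fpr2 of myeloid cells and Sh2d2a of T cells were also among them. A smaller group, with Dmpk, Col7a1, Map2 and Ptn, had fitted effects below 0 in WT and above 0 in KD. The KD effects of Map2 and Ptn were near 0 (0.08 ± 0.14 and 0.09 ± 0.20). Up and down here are the signs of the fitted effects. Past an adjusted p of 0.05 (edgeR's quasi-likelihood test, adjusted over all genes tested by the method of Benjamini and Hochberg) the 61 genes are 0.367% of those tested. Of them 51 had a negative difference (0.307%), 50 of these up in WT and down in KD (0.301%), and 10 had a positive difference, all 10 down in WT and up in KD (0.0602%). The exception in sign was Itgam, which was lower with RI in both genotypes.

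Among all genes tested 26.9% had fitted effects up in WT and down in KD, 23.7% the reverse, and the median difference was -0.02 on the log2 scale. RI and ICI libraries did not overlap in either genotype, in opposite directions, for 42 of the 50 and 3 of the 10. Over all genes tested the same held for 1.36% and 0.674%. Of all genes tested 8.56% had an unadjusted p under 0.05 with a negative difference and 4.91% with a positive one. Of the 61 genes 59 are protein coding, and 24 belong to one of 64 gene lists drawn up for this tumour.

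**Figure D1:**
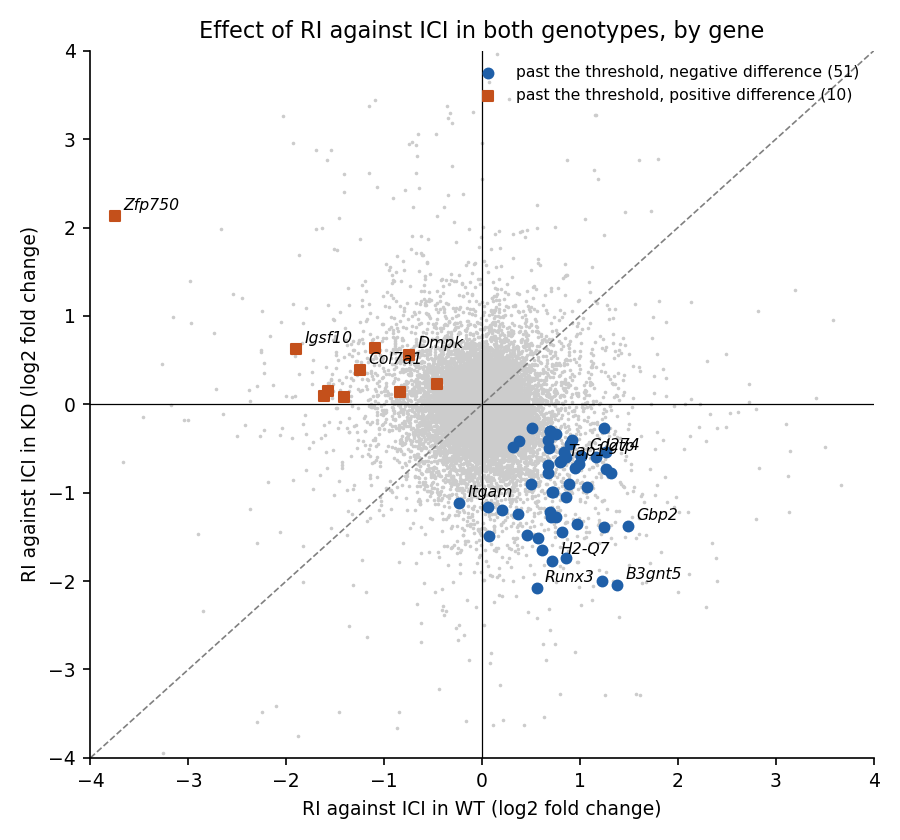
Log2 fold change of RI against ICI for each gene tested, in WT on the horizontal axis and in KD on the vertical axis, with grey points for genes that did not pass the threshold. The dashed line marks equal effects; the 51 blue circles lie below it, 50 of them in the quadrant up in WT and down in KD, and the 10 orange squares lie in the opposite quadrant. 19 genes beyond 4 log2 units on either axis are not drawn.

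The number of calls depended on single libraries. It was 1902 of 17133 genes tested without KD ICI 3. Leaving out KD RI 2 gave 178, and the count was 9 without KD RI 1, 13 without KD RI 3, 15 each without WT ICI 1 and 2, 16 without WT ICI 3, 18 without WT RI 1, 11 without WT RI 2 and 19 without WT RI 3. It was 51 when KD ICI 1 and 75 when KD ICI 2 was left out. All 61 genes kept the sign of their difference in each of these 12 fits, and 59 or 60 kept opposite signs between genotypes. Igtp, Irgm1, Gbp7, Tap1, H2-Q7, Cd274, Slfn2 and Dmpk were past the threshold in all 12. The sample descriptions also fall into namings (JIAN, TUI and SG793) that the labels do not explain. TUI occurs only with ICI (WT ICI 1, WT ICI 3 and KD ICI 2), and SG793 only in KD (KD ICI 3, KD RI 1 and KD RI 3). All WT RI libraries are JIAN. Naming thus runs partly along treatment and genotype, and its effect cannot be fully told apart from theirs. With naming as a factor 85 genes were called, 44 of them among the 61, and within the JIAN libraries alone (WT ICI 2, all WT RI, KD ICI 1 and KD RI 2) 230, of which 31 were among the 61. In the JIAN fit WT RI alone gives the spread, and the lone library of each other group is assumed to vary like it. All 61 kept the sign of their difference in both fits and 57 kept opposite signs. The plot of calls by setting shows the full range. DESeq2 called 574 of 16617 genes tested. List counts given below from DESeq2, or from edgeR without KD ICI 3, are to be read beside those shares of all genes.

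**Figure D2:**
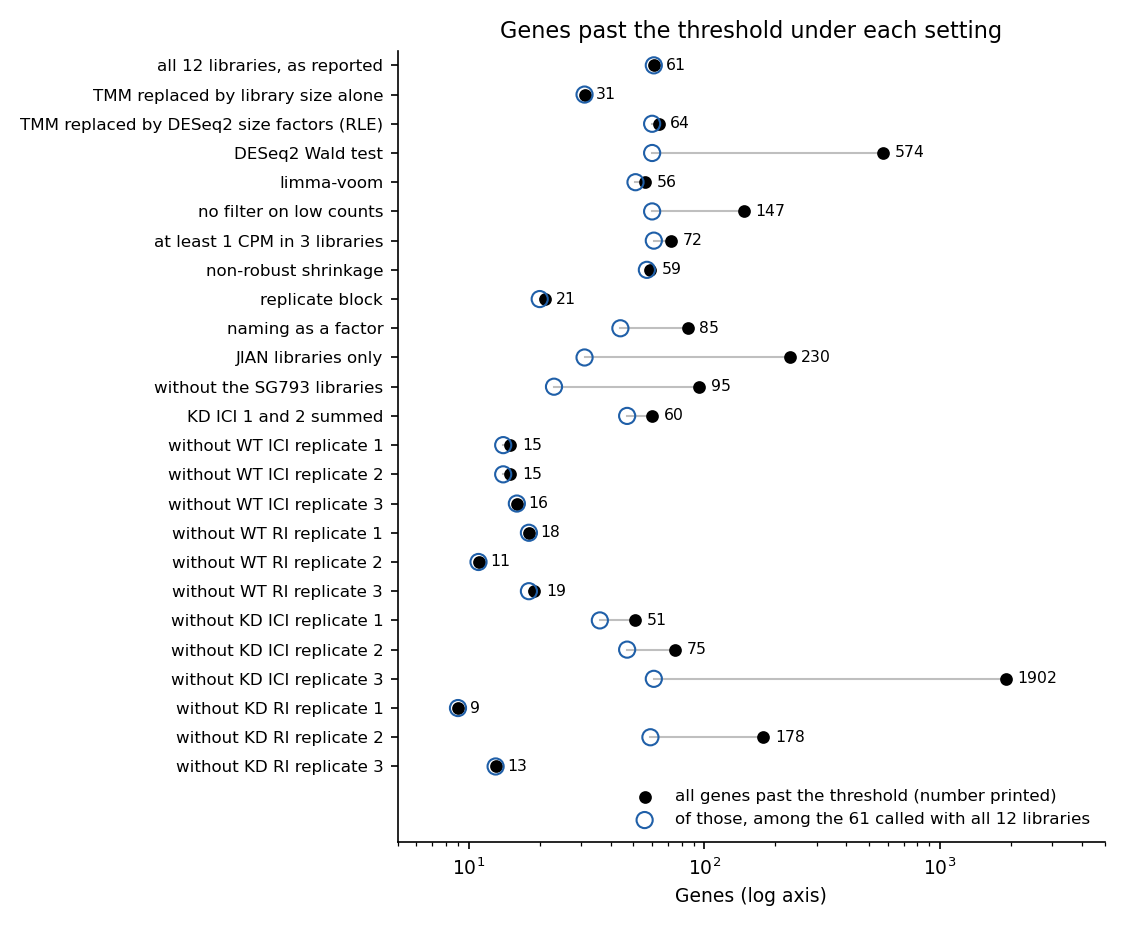
Number of genes past the threshold (black points, log axis, number printed) and how many of them are among the 61 of the fit with all 12 libraries (open blue circles), for each way of processing the counts and with each library left out. The count runs from 9 without KD RI replicate 1 to 1902 without KD ICI replicate 3.

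The guanylate-binding proteins are large GTPases that interferon-gamma induces and that attack the membranes of intracellular pathogens. All 11 members tested had a negative difference, 10 with opposite signs, and the median of -2.57 stood beside -0.02 over all genes. The list's mean log2 CPM was 2.73 to 3.01 in WT ICI and 4.10 to 4.45 in WT RI. In KD ICI it was -0.52, 0.11 and 1.04, against -0.43, -0.66 and -0.50 in KD RI, so the KD groups overlapped through KD ICI 1. Gbp7, Gbp3, Gbp9 and Gbp2 passed the threshold, 4 of 11 against 0.307% of all genes. Of the other 7 members, 6 had an unadjusted p under 0.05, but the KD counts of Gbp10, at 0 in all KD RI libraries, and Gbp11 are too few for a fold. The remaining 4 of these had differences from -3.45 (Gbp8) to -1.84 (Gbp6). Gbp2b had no counts in the KD groups and gives no usable estimate, and without Gbp10 and Gbp2b the median was again -2.57.

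Gbp2 was at 129.8, 138 and 95.2 CPM in WT ICI against 339.9, 375 and 308 in WT RI, but 7.68, 14.6 and 29.6 in KD ICI and 6.2, 7.49 and 6.33 in KD RI. All WT RI libraries lay above all WT ICI libraries and all KD RI libraries below all KD ICI libraries, with the highest KD ICI value in the library labelled KD ICI 3. The log2 effect was 1.49 ± 0.34 in WT and -1.38 ± 0.38 in KD, a difference of -2.87 ± 0.51 (adjusted p 0.0452, edgeR). Gbp7 went from 42.9, 40.3 and 32.5 to 90.9, 105 and 92.4 CPM in WT and from 5.51, 6.83 and 8.99 to 4.99, 3.48 and 3.998 in KD. Its groups did not overlap either, and the difference was -2.10 ± 0.26 (adjusted p 0.00568). Gbp3 and Gbp9 differed by -1.996 ± 0.31 and -1.91 ± 0.35, adjusted p 0.0246 and 0.0452. With single libraries left out, Gbp7 kept its call in all 12 fits, Gbp3 and Gbp9 in 4 each and Gbp2 in 3, the highest adjusted p being 0.160 for Gbp2 and Gbp9. The list's median lay between -2.91 without WT ICI 1 and -1.90 without KD ICI 3. Within the JIAN libraries 10 of 11 members were negative, at a median of -1.56.

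The immunity-related GTPases, another interferon-inducible family, large in mice, act together with the guanylate-binding proteins. All 12 members tested had a negative difference, 11 with opposite signs and 11 with an unadjusted p under 0.05, at a median of -1.96 that lay between -2.21 and -1.44 with single libraries left out. Within the JIAN libraries 10 of 12 were negative, at a median of -1.35. Igtp and Irgm1 passed the threshold, 16.7% of the list against 0.307% of all genes. Igtp stood at 50.8, 52.1 and 45.3 CPM in WT ICI against 115, 110.3 and 108 in WT RI, 14.2, 12.8 and 17.2 in KD ICI and 9.81, 8.06 and 11.3 in KD RI, with no overlap in either genotype. Its effect was 1.17 ± 0.13 in WT and -0.60 ± 0.14 in KD, a difference of -1.77 ± 0.19 with the smallest p of all genes (adjusted p 0.00568, edgeR). Irgm1 had 46.2, 48.4 and 47.3 CPM in WT ICI against 116, 114 and 107 in WT RI, 14.1, 16.6 and 20.4 in KD ICI and 15.4, 13.7 and 13.4 in KD RI. In KD its groups overlapped, so the difference of -1.51 ± 0.17 (adjusted p 0.00568) came mostly from WT. The predicted gene Gm12250, outside the list, is typed as a processed pseudogene in the deposited annotation. It was at 4.99, 5.23 and 4.58 CPM in WT ICI against 12.1, 11.9 and 10.8 in WT RI, 0.612, 0.633 and 2.18 in KD ICI and 0.277, 0.26 and 0.312 in KD RI. The KD levels rest on few counts, and the difference was -3.23 ± 0.59 (adjusted p 0.0442, with a call in 4 of 12 fits with a library left out).

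Several of these genes are neighbours. Gbp7, Gbp3 and Gbp2 lie at chr3:142530342-142638008, Gm12250 and Igtp at chr11:58187739-58207591, Psmb9 and Tap1 at chr17:34181988-34197225, and H2-Q5, H2-Q6 and H2-Q7 at chr17:35394126-35443773, on GRCm38 as deposited. Igtp shares 7974 bases with Irgm2, Tap1 shares 212 bases with Psmb9, and Gbp9 overlaps Gbp4 and Gbp8. How strand was treated in counting is not stated, and these families hold near-identical copies, so how reads were divided among such members is uncertain. Irgm2 itself had a difference of -1.62 ± 0.35 (adjusted p 0.075).

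Promoters were searched for the interferon-stimulated response element, GAAANNGAAA. The search covered both strands from 250 bases before to 50 bases after the RefSeq start on GRCm38.p6, and the motif can overlap itself. A gene with several promoters was counted once. The motif was found in 9 of the 38 genes with a negative difference that have a promoter in the RefSeq table (23.7%). The share was 3.99% of all 27025 genes with a promoter there and 3.88% of those among the genes tested. The motif was present in 5 of 5 guanylate-binding proteins, 6 of 8 immunity-related GTPases and 14 of 29 type I interferon antiviral effectors with a promoter. In class Ib genes it was found in 2 of 9 and in class I machinery in 3 of 14. Among neutrophil, AP-1 and hypoxia genes, lists that also had negative medians, it was found in 1 of 17, 1 of 21 and 1 of 20. In genes with a positive difference it was found in 1 of 8, Igsf10. A match is a description of the sequence, not of binding. Windows around the matches are shown 5′ to 3′ on the strand of the gene, with the letters of the motif, or of its reverse complement, in capitals.
Gbp2, chr3:142620592-142620625 on the + strand: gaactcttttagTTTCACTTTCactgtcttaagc
Gbp3, chr3:142559987-142560026 on the + strand: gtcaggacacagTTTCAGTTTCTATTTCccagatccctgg
Gbp7, chr3:142530271-142530304 on the + strand: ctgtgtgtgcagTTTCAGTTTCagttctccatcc
Igtp, chr11:58199510-58199543 on the + strand: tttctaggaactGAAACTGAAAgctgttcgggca
Gm12250, chr11:58183740-58183818 on the + strand: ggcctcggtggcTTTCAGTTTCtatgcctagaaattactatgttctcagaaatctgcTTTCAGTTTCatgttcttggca
Irgm1, chr11:48871423-48871462 on the - strand: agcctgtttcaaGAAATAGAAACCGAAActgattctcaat
H2-T23, chr17:36032804-36032837 on the - strand: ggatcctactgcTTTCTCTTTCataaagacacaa
Oas3, chr5:120777713-120777746 on the - strand: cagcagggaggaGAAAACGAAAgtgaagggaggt
Cytip, chr2:58160278-58160311 on the - strand: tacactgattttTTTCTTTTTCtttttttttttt
These are all 9 genes with a negative difference and a match; in Cytip the match borders a run of T. In Gbp2 the response element began 59 bases before the start, in Gbp7 53 and in Igtp 34 bases before it. Gbp3, Gm12250 and Irgm1 hold a pair of matches, which overlap in Gbp3 and Irgm1. The RefSeq promoter of Gm12250 ends at chr11:58183892, before the deposited locus of that gene, which starts at chr11:58187739. The cAMP response element TGACGTCA was found in 0 of the 38, against 2.03% of all genes with a promoter and 3.44% of those tested. The AP-1 motif TGANTCA was found in 7 (18.4%, against 8.97% and 6.88%). The box CCAAT was found in 16 (42.1%, against 41.1% and 42.6%).

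**Figure D3:**
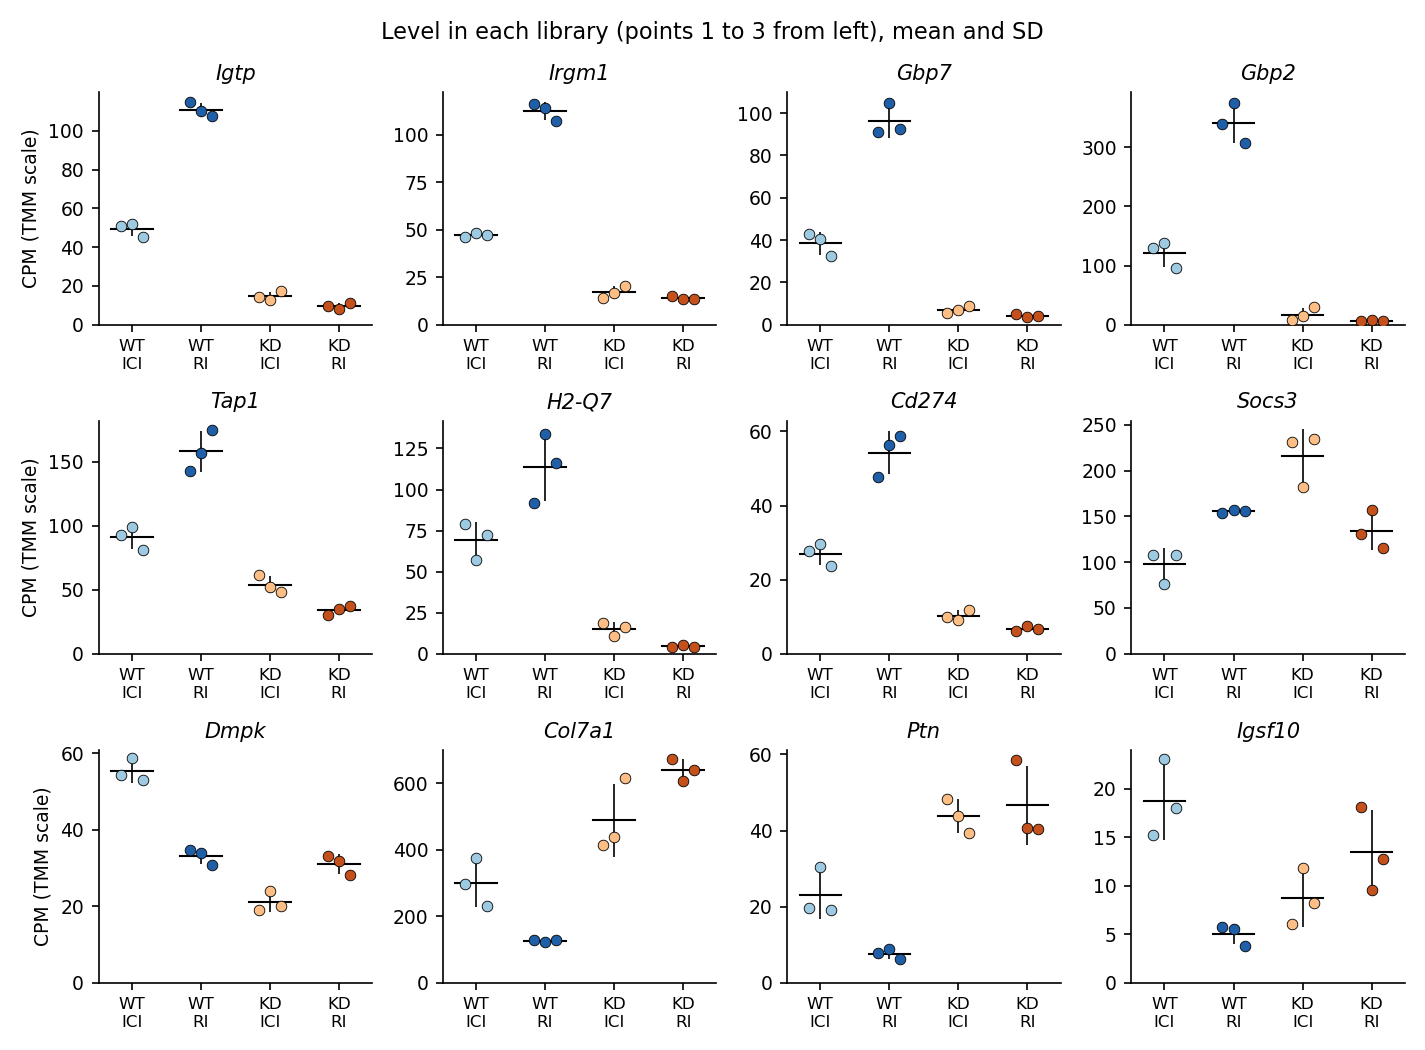
CPM on the TMM scale of 12 genes in each library (points, replicates 1 to 3 from left), with the mean (horizontal bar) and SD (vertical bar) of each group of 3. The first 8 panels are genes with a negative difference, higher with RI in WT and lower with RI in KD; the last 4 (Dmpk, Col7a1, Ptn, Igsf10) have a positive difference.

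Class I antigen presentation, which displays peptides of the cell interior to CD8 T cells, followed the same sign. Of 17 genes of the class I machinery 16 had a negative difference, 11 with opposite signs, at a median of -0.52. Tap1 and Psmb9 passed the threshold, 11.8% of the list against 0.307% of all genes. Tap1, a subunit of the transporter that carries peptides into the endoplasmic reticulum, was at 92.9, 99.1 and 81.5 CPM in WT ICI against 143, 157 and 175 in WT RI, 61.5, 52.1 and 48.3 in KD ICI and 30.4, 35.1 and 37.1 in KD RI. The groups did not overlap in either genotype, and the difference was -1.45 ± 0.18 (adjusted p 0.00568, edgeR). Psmb9, a subunit of the immunoproteasome, differed by -0.9954 ± 0.17 (adjusted p 0.0369), and its call was kept in 3 of 12 fits with a library left out. For the class I molecule H2-K1 and its light chain B2m the differences were -1.09 ± 0.26 and -1.03 ± 0.23, which did not pass (adjusted p 0.101 and 0.0822).

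Nonclassical class Ib molecules present restricted peptides or engage receptors of natural killer cells. Of 14 tested 13 had a negative difference and 10 opposite signs, at a median of -0.80. H2-Q7, H2-Q6, H2-Q5 and H2-T23 passed, 28.6% of the list against 0.307% of all genes. H2-Q7, a Qa-2 gene, was at 78.8, 57.3 and 72.1 CPM in WT ICI against 91.6, 134 and 116 in WT RI, 18.9, 10.6 and 16.4 in KD ICI and 3.99, 5.09 and 4.31 in KD RI. Every KD RI library was below every KD ICI library and every WT RI library above every WT ICI library, with a difference of -2.48 ± 0.30 (adjusted p 0.00568, edgeR). H2-Q6 and H2-Q5, its neighbours and close copies, differed by -2.08 ± 0.28 and -1.71 ± 0.32. H2-T23 encodes Qa-1, the ligand of the inhibitory receptor NKG2A, and had 57.5, 53.98 and 47.05 CPM in WT ICI against 79.8, 94.5 and 77.7 in WT RI, 52.8, 46.8 and 39.4 in KD ICI and 30.1, 40.2 and 34.8 in KD RI. Its KD groups overlapped, and the difference was -1.07 ± 0.20 (adjusted p 0.0452). Calls were kept in 12, 11, 2 and 2 of 12 fits for H2-Q7, H2-Q6, H2-Q5 and H2-T23, and the highest adjusted p was 0.160 for the last pair.

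MHC class II genes, which display extracellular peptides to CD4 T cells, were mostly lower with RI in both genotypes. All 10 had a negative difference at a median of -1.45, but only 2 had opposite signs and none passed the threshold by edgeR, against 1 by DESeq2 and none by limma-voom. An unadjusted p under 0.05 was reached by 3. The median effect was -0.37 in WT and -1.94 in KD. The median difference was -0.26 without KD ICI 3, in which the mean log2 CPM of the list was 3.27, against 1.22 in KD ICI 1 and 1.89 in KD ICI 2. The invariant chain gene Cd74 had a difference of -2.43 ± 1.17, with an adjusted p of 0.409.

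Cd274 encodes PD-L1, a ligand that restrains T cells through the receptor PD-1. It was at 27.7, 29.7 and 23.6 CPM in WT ICI against 47.7, 56.3 and 58.8 in WT RI, 9.86, 9.001 and 11.9 in KD ICI and 6.09, 7.59 and 6.7 in KD RI. No library of one treatment reached the range of the other within a genotype. The WT effect was 1.01 ± 0.14, the KD effect -0.59 ± 0.15, and their difference of -1.60 ± 0.21 (adjusted p 0.00852, edgeR) kept its call in all 12 fits with a library left out. Of 18 checkpoint genes tested 17 had a negative difference, at a median of -1.11 (-0.69 without KD ICI 3), and 12 had opposite signs. Of the others, Havcr2, which encodes TIM-3, and Ctla4 differed by -1.81 ± 0.46 and -2.63 ± 0.71, without passing (adjusted p 0.121 and 0.145).

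Irf1, the transcription factor that carries interferon-gamma signals to many of these genes, had 88.5, 84.7 and 82.3 CPM in WT ICI against 162, 178 and 142 in WT RI, 36.6, 33.4 and 50.6 in KD ICI and 31.97, 26.3 and 32.97 in KD RI. It did not overlap between treatments in either genotype and differed by -1.32 ± 0.21 (adjusted p 0.0252, edgeR). The class I transactivator Nlrc5 differed by -1.002 ± 0.21 and did not pass (adjusted p 0.0668). Of 39 type I interferon antiviral effectors 36 had a negative difference and 30 were up in WT and down in KD. The median was -0.79 (-0.56 without KD ICI 3). Only Oas3 passed, 2.56% of the list against 0.307% of all genes, while DESeq2 called 13 of these genes and limma-voom 1. The mean log2 CPM of the list was 3.59 to 3.83 in WT ICI and 4.08 in all WT RI libraries. In KD ICI it was 2.12, 2.41 and 3.04, against 2.17, 2.17 and 2.12 in KD RI, so KD ICI 1 was level with KD RI. Within the JIAN libraries 25 of 39 were negative, at a median of -0.26. Oas3 makes the second messenger that activates RNase L and had 13.1, 19.6 and 15.4 CPM in WT ICI against 28.6, 29.6 and 37.03 in WT RI, 10.1, 12.3 and 12.7 in KD ICI and 6.92, 8.21 and 6.8 in KD RI. Its groups did not overlap, and its difference was -1.67 ± 0.25 (adjusted p 0.0167). Slfn2, a schlafen family gene needed for T cell quiescence, differed by -1.39 ± 0.16 (adjusted p 0.00568). Its levels were 37.3, 33.7 and 37.2 CPM in WT ICI against 38.6, 41.9 and 43.8 in WT RI, 26.4, 22.1 and 25.4 in KD ICI and 9.92, 11.9 and 10.5 in KD RI, so most of the difference lay in KD. Irf1 kept its call in 4, Oas3 in 6 and Slfn2 in all 12 fits with a library left out, and the highest adjusted p of Irf1 was 0.132.

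**Figure D4:**
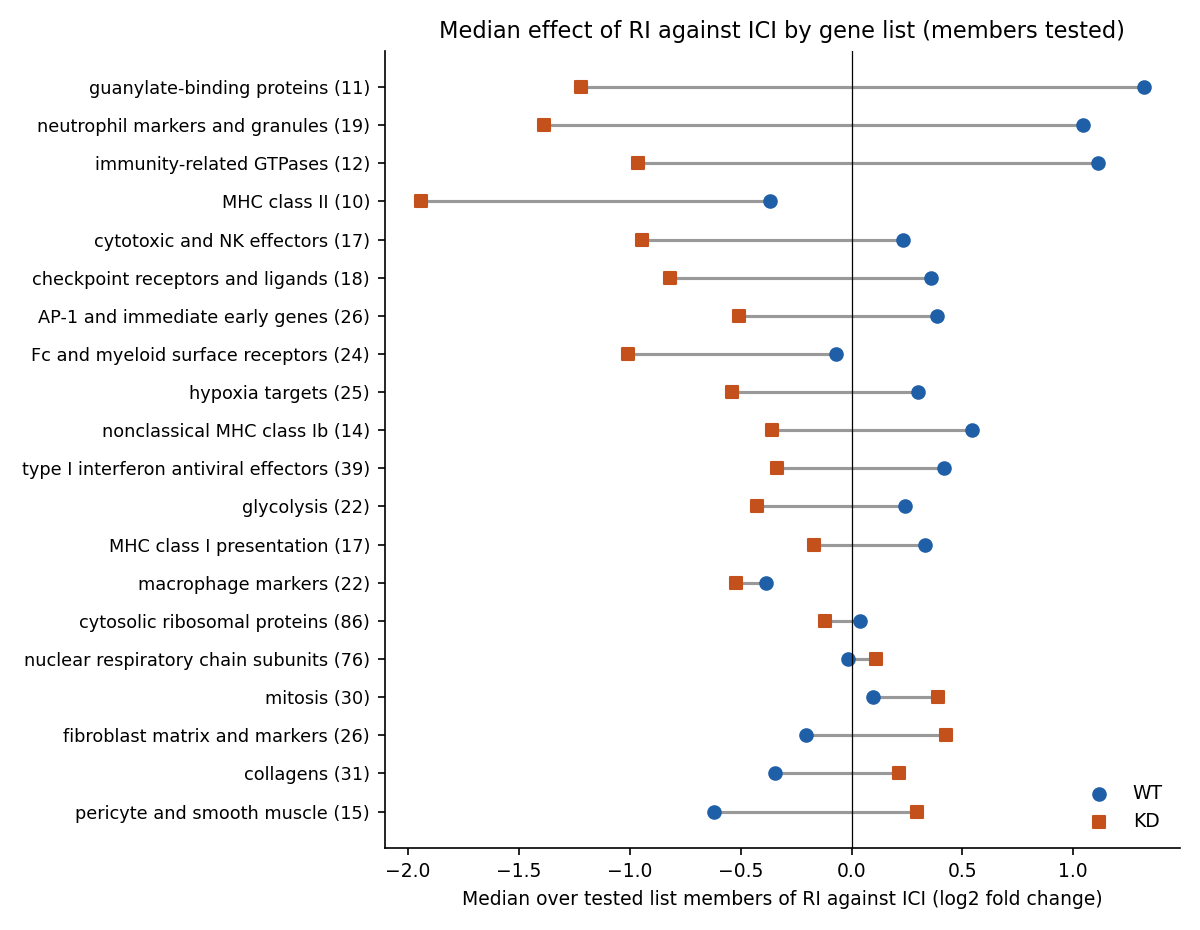
Median log2 fold change of RI against ICI over the tested members of 20 gene lists, in WT (blue circles) and KD (orange squares), with the number of members tested. The guanylate-binding proteins lie farthest apart; MHC class II is below 0 in both genotypes, and collagens, fibroblast and pericyte genes lie below 0 in WT and above 0 in KD.

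Socs3, Tnfaip3, Nfkbia, Pim1 and Ptpn22 act in cytokine, NF-kB and lymphocyte receptor signalling. They were picked from the 61 after their values had been seen, and no list was drawn up for them as a group. A list of interleukin 6 family cytokines and receptors split in direction. Of 16 members tested 10 had a negative and 6 a positive difference, at a median of -0.42. In that list 1 passed, 6.25% against 0.307% of all genes. Socs3, which inhibits receptors of the interleukin 6 family, was at 108, 76.7 and 108 CPM in WT ICI against 154, 158 and 156 in WT RI, 232, 182 and 235 in KD ICI and 131, 157 and 115 in KD RI. Its KD ICI libraries lay above all WT libraries, and its treatment groups did not overlap in either genotype (-1.36 ± 0.22, adjusted p 0.025, edgeR). Tnfaip3, the ubiquitin-editing inhibitor of NF-kB known as A20, had 20.6, 15.3 and 18.8 CPM in WT ICI against 28.3, 33.9 and 33.1 in WT RI, 22.9, 22.1 and 26.4 in KD ICI and 13.7, 18.4 and 13.6 in KD RI, a difference of -1.45 ± 0.22 (adjusted p 0.0215). Nfkbia, which holds NF-kB in the cytoplasm, differed by -1.46 ± 0.27 (adjusted p 0.0462). Pim1, a kinase gene induced by cytokine signals, and Ptpn22, a phosphatase of lymphocyte receptors, differed by -1.90 ± 0.25 and -1.40 ± 0.19 (adjusted p 0.00871 and 0.0091). Their calls were kept in 4 (Socs3), 6 (Tnfaip3), 3 (Nfkbia), 11 (Pim1) and 10 (Ptpn22) of 12 fits with a library left out.

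AP-1 factors and other immediate early genes answer growth factor, stress and cytokine signals within minutes. Of 26 tested 24 had a negative difference, 21 were up in WT and down in KD, and 17 had an unadjusted p under 0.05, at a median of -0.91 that stayed between -1.08 and -0.78 with single libraries left out. Fosl1 and Zfp36 passed, 7.69% of the list against 0.307% of all genes. Fosl1, an AP-1 subunit, had 222, 163 and 194 CPM in WT ICI against 330.1, 317 and 334 in WT RI, 364, 306 and 338 in KD ICI and 246, 285 and 269 in KD RI, without overlap (-1.09 ± 0.17, adjusted p 0.0229, edgeR). Zfp36 encodes tristetraprolin, which destabilises cytokine mRNAs, and differed by -1.61 ± 0.29 (adjusted p 0.0452). Hbegf, an EGF receptor ligand gene, and Sik1, a CREB-induced kinase of the group downstream of LKB1, differed by -1.38 ± 0.26 and -1.59 ± 0.25 (adjusted p 0.0452 and 0.025). Of 22 genes of the LKB1 complex, AMPK and related kinases, 12 had a negative and 10 a positive difference, at a median of -0.03. Sik1 levels were 43.7, 37.6 and 38.9 CPM in WT ICI against 71.3, 84.7 and 86.1 in WT RI, 219, 149 and 129.6 in KD ICI and 100.2, 131 and 101 in KD RI, so the KD groups overlapped through KD ICI 3 and KD RI 2. The call was kept in 5 (Fosl1), 3 (Zfp36), 3 (Hbegf) and 5 (Sik1) of 12 fits.

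Of 24 Fc and myeloid surface receptors Pirb and Itgam passed, 8.33% against 0.307% of all genes. A negative difference was found for 22, but only 11 were up in WT and down in KD, and the median effects were -0.07 in WT and -1.01 in KD. The median difference was -0.86, with 15 to 23 members negative when single libraries were left out. Other receptor genes of myeloid cells among the 61, picked after their values had been seen, were Tarm1, Fpr2 and Ltb4r1. Fpr2, a formyl peptide receptor of neutrophils and macrophages, had 4.94, 4.23 and 4.45 CPM in WT ICI against 8.61, 8.04 and 7.33 in WT RI, 7.82, 4.48 and 4.21 in KD ICI and 1.72, 2.5 and 1.82 in KD RI. Its groups did not overlap in either genotype (-2.26 ± 0.36, adjusted p 0.025, edgeR). Tarm1, an activating receptor of myeloid cells, and Ltb4r1, the leukotriene B4 receptor, differed by -2.63 ± 0.37 and -1.98 ± 0.35. Itgam encodes CD11b and was at 41.98, 36.9 and 40.7 CPM in WT ICI against 33.2, 31.6 and 36.9 in WT RI, 22.7, 19.6 and 24.9 in KD ICI and 10.03, 10.9 and 10.02 in KD RI. It was lower with RI in both, by -0.23 ± 0.11 in WT and -1.12 ± 0.12 in KD, a difference of -0.89 ± 0.17 (adjusted p 0.0453). Pirb, an inhibitory receptor for class I molecules, had an effect of 0.06 ± 0.14 in WT and -1.16 ± 0.15 in KD (difference -1.22 ± 0.21, adjusted p 0.0302). The call was kept in 8 (Tarm1), 4 (Fpr2), 3 (Ltb4r1), 3 (Itgam) and 4 (Pirb) of 12 fits with a library left out.

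Neutrophil marker and granule genes had the second most negative median of the plotted lists, -2.56, and 18 of 19 were up in WT and down in KD, yet none of the 19 passed by edgeR, while 15 had an unadjusted p under 0.05, 9 passed by DESeq2, none by limma-voom and 8 by edgeR without KD ICI 3. The summed level of S100a8, S100a9, Csf3r and Cxcr2 was 68.8, 29.0 and 60.96 CPM in WT ICI against 124, 129 and 126 in WT RI, 514, 257 and 151 in KD ICI and 66.7, 205 and 67.1 in KD RI. The KD groups overlapped through KD ICI 3 and KD RI 2. Clec4e, a receptor for mycobacterial and damage-associated ligands, came closest, with 14.6, 9.38 and 15.5 CPM in WT ICI against 22.7, 25.3 and 22.99 in WT RI, 63.6, 56.8 and 36.6 in KD ICI and 14.7, 35.1 and 15.8 in KD RI (difference -2.10 ± 0.46, adjusted p 0.0779). The list's median was -3.17 without KD RI 2 and -2.04 without KD ICI 1. These markers moved in the same direction as the myeloid and signalling genes above, and their part in those results was not tested. The macrophage markers (Adgre1, Csf1r, C1qa, C1qb, C1qc, Mrc1) ranged in sum from 814 to 958 CPM in WT ICI, from 583 to 695 in WT RI, from 220 to 431 in KD ICI and from 211 to 263 in KD RI. Of 22 macrophage genes 13 had a negative difference at a median of -0.22, which was 0.15 without KD ICI 3. None passed by edgeR, DESeq2 or limma-voom, and 4 had an unadjusted p under 0.05. Without KD ICI 3 edgeR called 3 of the 22, against 1902 of 17133 genes tested.

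Some of the 61 genes are known mainly from lymphocytes and other blood cells. Sh2d2a, an adaptor of activated T cells, had 7.46, 5.35 and 6.19 CPM in WT ICI against 12.1, 12.6 and 12.5 in WT RI, 1.02, 0.859 and 1.14 in KD ICI and 0.332, 0.468 and 0.363 in KD RI, where 1 count is 0.0399 to 0.0680 CPM. Its groups did not overlap (-2.32 ± 0.32, adjusted p 0.0102, edgeR). Runx3, a transcription factor of CD8 T and natural killer cells that myeloid cells also express, had 5.63, 4.67 and 6.58 CPM in WT ICI against 8.34, 8.87 and 7.62 in WT RI, 3.4, 3.39 and 6.29 in KD ICI and 0.997, 1.4 and 0.675 in KD RI. It differed by -2.64 ± 0.43 (adjusted p 0.0254). Cytip and the leukocyte surface antigen gene Cd52 differed by -2.26 ± 0.33 and -1.56 ± 0.26. In WT, Cd52 had an effect of 0.07 ± 0.18 and its groups overlapped, so its difference lay in KD. Of 17 cytotoxic and natural killer genes all 17 had a negative difference at a median of -1.23, 11 with opposite signs and 12 of 17 still negative without KD ICI 3. Of these none passed by edgeR or limma-voom, with 4 at an unadjusted p under 0.05 and 3 past the threshold by DESeq2. Among them the granzyme B gene Gzmb came closest (-2.32 ± 0.50, adjusted p 0.0755). Of 21 T cell receptor complex and identity genes 15 had a negative difference and 11 were up in WT and down in KD, at a median of -0.57 that was -1.32 without KD RI 3. None of these passed by edgeR or limma-voom, with 5 at an unadjusted p under 0.05 and 1 past the threshold by DESeq2. Of 5 regulatory T cell genes 3 had a negative difference. Calls were kept in 9 (Sh2d2a), 4 (Runx3), 6 (Cytip) and 5 (Cd52) of 12 fits.

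Hypoxia targets and glycolysis genes had negative medians of -0.84 and -0.61 without a member past the threshold by edgeR or limma-voom. DESeq2 called 9 and 10 members, and edgeR without KD ICI 3 called 9 and 8. Of 25 hypoxia genes 24 had a negative difference, 19 were up in WT and down in KD and 14 had an unadjusted p under 0.05. Adm, the vasodilator peptide adrenomedullin, was at 35.4, 23.2 and 25.8 CPM in WT ICI against 76.3, 89.5 and 59.6 in WT RI, 192, 147 and 122 in KD ICI and 74.6, 125 and 47.4 in KD RI, with overlap in KD (difference -2.31 ± 0.44, adjusted p 0.0576). Of 22 glycolysis entries 21 had a negative difference, and 14 had an unadjusted p under 0.05. Hexokinase 2, encoded by Hk2, had 177, 129.7 and 161 CPM in WT ICI against 241, 262 and 238 in WT RI, 149, 143 and 219 in KD ICI and 115, 133 and 105 in KD RI. Its groups did not overlap in either genotype, and its difference of -1.20 ± 0.23 just missed the threshold (adjusted p 0.053).

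**Figure D5:**
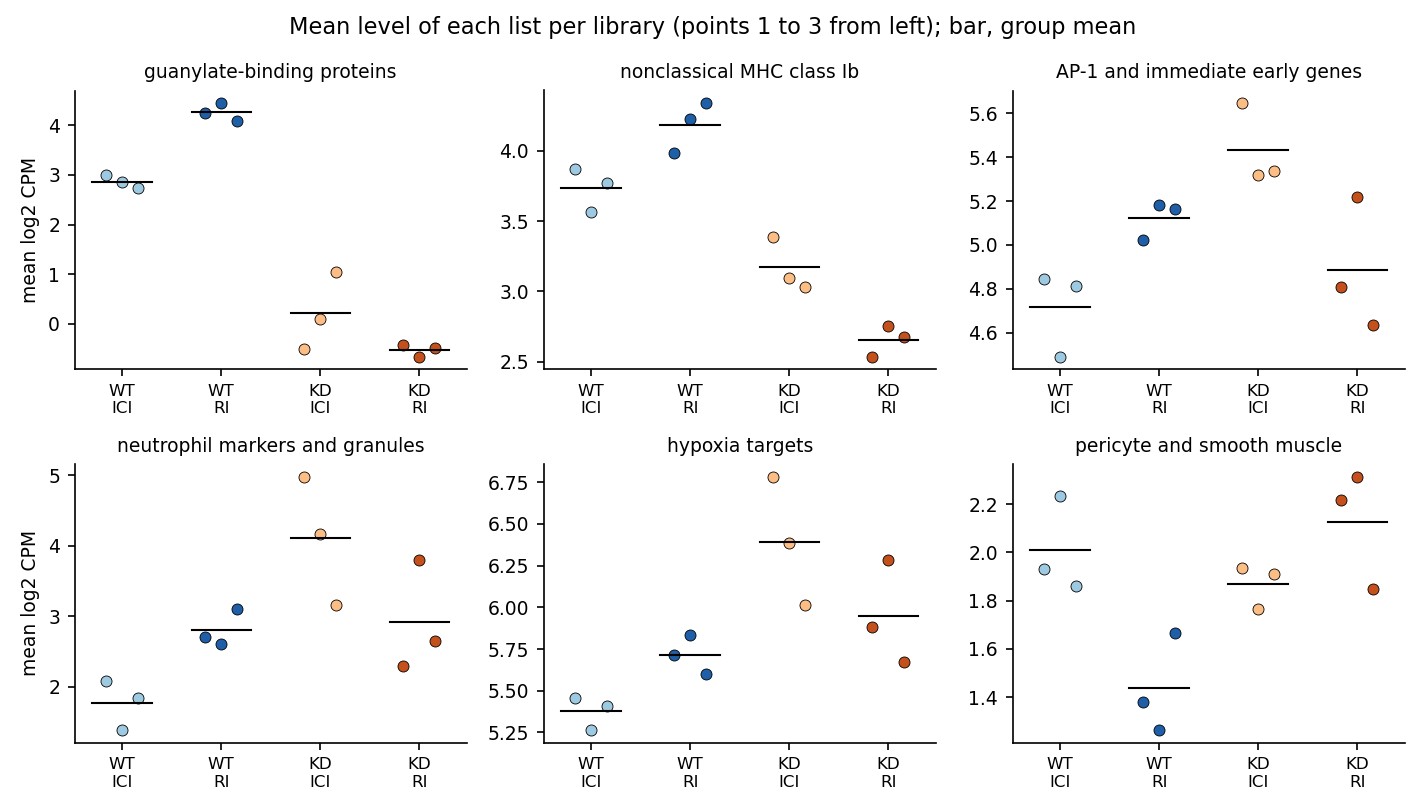
Mean log2 CPM of the tested members of 6 gene lists in each library (points, replicates 1 to 3 from left; bar, group mean). KD ICI 3 is the highest KD library for the guanylate-binding proteins and the lowest KD ICI library for neutrophil and hypoxia genes, and KD RI 2 is the highest KD RI library for both of the latter.

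The remaining genes with a negative difference have diverse roles. B3gnt5, which starts lacto-series glycolipid chains, had 0.824, 0.997 and 1.65 CPM in WT ICI against 3.002, 2.7 and 3.38 in WT RI, 1.43, 1.18 and 2.7 in KD ICI and 0.332, 0.312 and 0.623 in KD RI. This was the largest negative difference of the 61 genes, -3.43 ± 0.57 (adjusted p 0.0298, edgeR), at low counts. Upp1, uridine phosphorylase, and Tgm2, transglutaminase 2, differed by -1.67 ± 0.27 and -1.81 ± 0.32. Mfng, a Fringe glycosyltransferase that modifies Notch, differed by -2.01 ± 0.34. Of 15 Notch receptors, ligands and targets tested, 7 had a negative and 8 a positive difference, at a median of 0.08. Kctd13, Elmsan1 and Cfap43 had the smallest negative differences, -0.79 ± 0.14, -0.80 ± 0.14 and -0.78 ± 0.14, with groups that did not overlap.

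Dmpk, the kinase gene whose repeat expansion causes myotonic dystrophy, led the 10 genes with a positive difference. It was at 54.3, 58.8 and 52.98 CPM in WT ICI against 34.6, 33.8 and 30.8 in WT RI, 18.9, 23.9 and 20.1 in KD ICI and 33.2, 31.9 and 28.04 in KD RI. WT RI libraries were all below WT ICI and KD RI libraries all above KD ICI. The effects of -0.74 ± 0.11 in WT and 0.56 ± 0.11 in KD gave a difference of 1.30 ± 0.16 (adjusted p 0.00568, edgeR), which was called in all 12 fits with a library left out. Of the libraries with high muscle markers, WT ICI 2 held the highest and WT RI 3 the lowest Dmpk level of its group, and these were left out only singly. In KD the muscle markers summed to 2.65, 4.61 and 25.7 CPM in KD ICI against 6.98, 80.4 and 85.6 in KD RI. The part of muscle RNA in the Dmpk result was not tested.

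Col7a1, the collagen of anchoring fibrils, had 297, 376 and 231 CPM in WT ICI against 129, 123 and 129.8 in WT RI, 413, 439 and 615 in KD ICI and 672, 607 and 639 in KD RI. WT groups were apart and KD groups overlapped through KD ICI 3 (1.63 ± 0.25, adjusted p 0.0215, edgeR). Map2, a microtubule-associated protein of neurons, and Ptn, the heparin-binding growth factor pleiotrophin, were lower with RI in WT and nearly level in KD. Map2 had effects of -1.41 ± 0.14 in WT and 0.08 ± 0.14 in KD, and Ptn had -1.61 ± 0.21 and 0.09 ± 0.20, with differences of 1.49 ± 0.20 and 1.70 ± 0.29 (adjusted p 0.0091 and 0.0369). Prkd1, protein kinase D1, and Amigo1, a neuronal adhesion molecule, showed the same form (1.72 ± 0.32 and 0.98 ± 0.19).

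Rdh10, a retinol dehydrogenase of retinoic acid synthesis, did not overlap in either genotype, with 94.5, 97.1 and 99.2 CPM in WT ICI against 66.2, 67.1 and 77.4 in WT RI, 57.8, 55.7 and 52.3 in KD ICI and 61.05, 66.02 and 67.1 in KD RI. Its difference was 0.69 ± 0.13 (adjusted p 0.0452, edgeR). Igsf10 had the largest difference at more than trace levels among the 10, 2.53 ± 0.41 (adjusted p 0.0257), with overlap in KD. Zfp750, a transcription factor gene of epidermal differentiation, had 36, 84 and 24 counts in WT ICI, 3, 4 and 2 in WT RI, 1, 1 and 0 in KD ICI and 5, 2 and 3 in KD RI. The KD counts are too few for a fold, and the gene lies wholly within Tbcd, whose highest group mean was 122 CPM. Dmpk kept its call in 12, Map2 in 11, Col7a1 in 5, Igsf10 in 4, Ptn, Rdh10 and Amigo1 in 3, and Prkd1, Zfp950 and Zfp750 in 2 of 12 fits with a library left out.

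Stromal lists had positive medians. Of 31 collagens 21 had a positive difference, 14 of them down in WT and up in KD, at a median of 0.60. Only Col7a1 was past the threshold, 3.23% of the list against 0.0602% of all genes. Of 26 fibroblast matrix genes and markers 22 had a positive difference (median 0.56), and of 15 pericyte and smooth muscle genes 14 (median 0.81), with none past the threshold by edgeR or limma-voom in either. In these lists 5 and 3 had an unadjusted p under 0.05, and DESeq2 called 4 and 0. Rgs5, a pericyte regulator of G-protein signalling, had 22.3, 25.7 and 22.4 CPM in WT ICI against 10.7, 10.5 and 11.8 in WT RI, 4.69, 4.84 and 12.8 in KD ICI and 13.02, 9.72 and 5.92 in KD RI. WT groups were apart and KD groups overlapped (1.45 ± 0.50, adjusted p 0.226). The fibroblast median ran from 0.40 without KD ICI 3 to 0.90 without WT RI 3, and the pericyte median from 0.50 without KD RI 1 to 1.04 without KD RI 3. Within the JIAN libraries, with 1 library in each group but WT RI, the medians of the collagen, fibroblast and pericyte lists were -0.13, 0.29 and 0.64.

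Of 86 cytosolic ribosomal protein genes 78 had a negative difference with a median of -0.15. It was 0.08 without KD ICI 1, -0.36 without KD ICI 3 (83 of 86 negative), 0.0037 with library size alone and -0.62 within the JIAN libraries (85 of 86 negative). Of 76 nuclear respiratory chain subunits 59 had a positive difference (median 0.19, and 0.00257 within the JIAN libraries) and 35 were down in WT and up in KD. No member of either list passed by edgeR or limma-voom, and 0 and 8 had an unadjusted p under 0.05. DESeq2 called 0 of 86 and 3 of 76, against 574 of 16617 genes tested. Of 30 mitosis genes 26 had a positive difference (median 0.30), with none past the threshold by edgeR, DESeq2 or limma-voom or at an unadjusted p under 0.05. Without KD ICI 3 edgeR called 1902 of 17133 genes tested, and 20 of the 30 mitosis genes. Their mean log2 CPM was 5.68, 6.08 and 6.91 in KD ICI, 6.68, 6.50 and 6.89 in KD RI, 6.69 to 6.71 in WT ICI and 6.80 to 6.83 in WT RI, and the median was 0.75 without KD ICI 3 and 0.06 without KD ICI 1. Among p53 targets 16 of 26 had a negative difference, and the cell cycle inhibitor gene Cdkn1a had the smallest p, with 37.2, 44.8 and 35.9 CPM in WT ICI against 55.1, 44.9 and 64.9 in WT RI, 84.1, 75.3 and 89.9 in KD ICI and 43.2, 67.5 and 37.7 in KD RI (difference -1.23 ± 0.28, adjusted p 0.0851). Skeletal muscle genes had a median of 2.53 that ran from -1.13 without WT ICI 2 to 9.45 without WT RI 3, and none passed by edgeR, DESeq2 or limma-voom or reached an unadjusted p under 0.05.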

How the data were processed

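Per the file headers, the authors deposited whole-number counts and FPKM per gene for the 12 libraries; the FPKM values were not analysed. HISAT2 and the builds GRCm38 and mm10 appear in the submitters' processing notes; the counter, annotation and strand setting are not stated there. Columns were matched to samples by their descriptions. Counts were scaled by TMM in edgeR 4.0.16 (R 4.3.3), filtered with filterByExpr by group (minimum count 10, minimum total 15) and fitted with 1 mean per group by robust quasi-likelihood. The interaction contrast was tested two-sided, with p-values adjusted by Benjamini and Hochberg's method and a threshold of 0.05. The common biological coefficient of variation was 0.209, and 1 count is 0.0399 to 0.0680 CPM on the TMM scale. Alternatives used DESeq2 1.42.0, limma-voom (limma 3.58.1), other scalings and filters, a replicate block, naming as a factor and left-out libraries. The procedure was tested on simulated data.

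Genes and lists were chosen with earlier results of these data known. Stk11 and Sfrp2 were named, then the genes of largest opposite difference past the threshold, 10 per direction with at least 2 CPM in a group, and up to 3 genes past the threshold per list and direction, or the 2 of smallest p where none passed. Some genes that this rule names are not reported here. Other genes past the threshold or listed were picked for known function once their values had been seen. Promoters are RefSeq's on GRCm38.p6. The 3 libraries of knockdown tumours given radiation alone have no counts in the table used and were not used here.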

Additional observations from a re-analysis of the deposited data

Results flagged for a closer look

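The treatment effect differed between WT and KD tumours, by the test of the difference itself (edgeR's quasi-likelihood test, adjusted p at or under 0.0498), in 61 genes. The log2 differences, KD effect minus WT effect, were -1.77 for Igtp, -1.51 for Irgm1, -3.23 for Gm12250, -2.10 for Gbp7, -2.0 for Gbp3, -1.91 for Gbp9 and -2.87 for Gbp2 among the interferon-inducible GTPases and their neighbours. In antigen presentation they were -1.45 for Tap1, -1.0 for Psmb9, -2.48 for H2-Q7, -2.08 for H2-Q6, -1.71 for H2-Q5 and -1.07 for H2-T23. Interferon-linked and immune-regulatory genes had -1.32 for Irf1, -1.67 for Oas3, -1.39 for Slfn2, -1.46 for Apol7a, -1.17 for Nod1 and -1.60 for Cd274. For signalling genes the values were -1.36 for Socs3, -1.45 for Tnfaip3, -1.46 for Nfkbia, -1.61 for Zfp36, -1.90 for Pim1, -1.40 for Ptpn22, -1.09 for Fosl1, -1.38 for Hbegf and -1.59 for Sik1. Genes of myeloid cells had -2.63 for Tarm1, -2.26 for Fpr2, -1.22 for Pirb, -0.89 for Itgam, -1.98 for Ltb4r1, -2.04 for Trpm2 and -2.6 for Ms4a8a. For AA467197 the value was -1.35. Genes known mainly from lymphocytes and other blood cells had -2.32 for Sh2d2a, -2.26 for Cytip, -1.56 for Cd52, -2.64 for Runx3, -1.79 for Stx11, -1.93 for Ptk2b and -2.01 for Mfng. Other negative values were -3.43 for B3gnt5, -1.67 for Upp1, -1.81 for Tgm2, -1.0 for Itga7, -0.79 for Kctd13, -0.80 for Elmsan1, -1.72 for Ppp1r3b and -0.78 for Cfap43. Positive values were 1.30 for Dmpk, 1.49 for Map2, 1.63 for Col7a1, 2.53 for Igsf10, 1.70 for Ptn, 1.73 for Zfp950, 1.72 for Prkd1, 0.69 for Rdh10, 0.98 for Amigo1 and 5.88 for Zfp750, the last from at most 5 counts in any KD library, so that its fitted value is no measure of size.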

How the results depend on the processing

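With all 12 libraries 61 genes were called, 51 with a negative and 10 with a positive difference, and 50 and 10 of them with opposite signs (up in WT and down in KD, and the reverse). In the same order (all, negative, positive, up in WT and down in KD, down in WT and up in KD), DESeq2 gave 574, 451, 123, 431 and 119, no filter on low counts 147, 125, 22, 122 and 20, and the JIAN libraries alone 230, 167, 63, 162 and 55. Library size in place of TMM gave 31 in all, 24 negative and 24 up in WT and down in KD; it also moved the median difference of all genes from -0.02 to 0.12. Without the SG793 libraries there were 95 in all, 24 positive and 18 down in WT and up in KD. Without KD ICI 1 and KD ICI 3 together, a choice made after seeing the data, the counts were 375, 269, 106, 249 and 94. With single libraries left out they ran from 9 to 1902, 8 to 1061, 1 to 841, 8 to 940 and 1 to 632, lowest without KD RI 1 and highest without KD ICI 3. The cause was not tested. The JIAN libraries leave 1 library in each group but WT RI, leaving out SG793 leaves 1 in KD RI, and leaving out KD ICI 1 and 3 leaves 1 in KD ICI; a lone library is assumed to vary like the other groups. Size factors of DESeq2, limma-voom, the stricter filter, non-robust shrinkage, naming as a factor and summing KD ICI 1 with KD ICI 2 gave totals of 64, 56, 72, 59, 85 and 60. All 61 genes kept their sign in each of these settings, and 57 to 60 kept opposite signs.

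A replicate block by the number in the sample title gave 21, 18, 3, 18 and 3, with 20 of the 61 kept. The labels do not say whether the numbers pair the samples. Over 18 same-numbered pairs of libraries the residuals around group means had an average correlation of 0.00638 (-0.344 to 0.301), with 7 pairs over 0.1. Only 3 of 12 libraries were closest to a library of their own number. With 3 libraries a group these values cannot decide whether samples were paired.

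The sign turned for genes that had not passed: Stk11 with naming as a factor (-0.0207), within the JIAN libraries Sfrp2 (-0.97), Wnt6 (0.20), Krt7 (0.17), Srebf1 (0.15) and Slc4a1 (0.17), and Pax5 without the SG793 libraries (0.22) and without KD ICI 1 and KD ICI 3 (0.0011). The 3 libraries a group, few counts in KD for T cell genes, and the unexplained names of KD ICI 3 limit these comparisons.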
